A study of Mus musculus with 18 samples.

Results

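The genes described here encode the machinery that loads, docks, primes and fuses synaptic vesicles. The set held 34 genes, chosen by symbol, and all 34 were found among the 51290 genes of the deposited table. The set covered SNARE proteins, the factors that take SNARE complexes apart, synaptotagmins and Doc2 proteins, complexins, active zone and priming factors, Rab3 GTPases, synapsins, integral vesicle membrane proteins, vesicular glutamate transporters and a clathrin assembly protein.

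A synaptic vesicle fuses when a SNARE protein on the vesicle, such as synaptobrevin, zips together with syntaxin and SNAP-25 on the plasma membrane. Synaptotagmins and Doc2 proteins couple that step to calcium, complexins hold the partly assembled complex, and the ATPase encoded by Nsf then recycles the SNAREs. These proteins are made in the cell bodies of neurons, and in a peripheral sensory neuron they serve both the central terminals and transport along the axon.

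The data were polyA RNA-seq estimated counts for 18 mouse samples in 3 groups of 6. Normal nerve was trigeminal nerve of Nf1 flox/flox mice without PostnCre, and plexiform neurofibroma was trigeminal nerve of Nf1 flox/flox mice carrying PostnCre. Malignant peripheral nerve sheath tumor (MPNST) came from 6 mice that were Nf1 flox/flox and Arf flox/flox and carried PostnCre. All 3 groups therefore carried the floxed Nf1 alleles. Cre was driven by the promoter of Postn, the periostin gene, so recombination was limited to cells that use that promoter and to their descendants. Neither the ages nor the body sites of the MPNSTs are stated in the labels. The deletions are limited to cells with Cre, and counts per gene also cover transcript outside the deleted parts, so the genes named in the genotypes check the labels only weakly: nerve libraries held 82.4 to 161 CPM of Nf1, neurofibroma libraries 66.7 to 91.3 and MPNST libraries 28.1 to 123. Cdkn2a, which encodes Arf and a second product, was at 0.280 to 3.01, 3.54 to 8.58 and 0.314 to 692 CPM in the same order. The nerve and neurofibroma samples were taken from an earlier series and the MPNSTs from this one, so the tumor type, the series and the site of the tissue cannot be told apart in any comparison with MPNST. Nothing in the labels says whether the nerve and neurofibroma samples were separate animals, and p-values measure the spread between these samples, which may be partly technical. Samples are called by group and by a number given in accession order, which pairs nothing.

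Estimated counts summed to 14303986 to 20335697 per nerve library. Neurofibroma libraries held 15307987 to 20056513 and MPNST libraries 13886399 to 23652959. Levels are given as CPM, the count scaled to a common library total. Some libraries stood apart on markers of other tissues. MPNST 2 held 427219 CPM summed over 11 salivary gland genes, and MPNST 3 held 54769 CPM over 10 skeletal muscle genes. Such counts are part of the library total, so they lower the CPM of all other genes in that library. The library labelled MPNST 6 went against its label: it held 4620 CPM over 10 sympathoadrenal genes, led by Th at 1736 CPM and Dbh at 705 CPM, and 4219 CPM over 9 pancreatic acinar genes. In the other 5 MPNST libraries the sympathoadrenal sum ran from 1.59 to 30.1 CPM. Nerve 6 had the highest sum of oligodendrocyte and astrocyte genes (2218 CPM), with Gad1 at 181 CPM and Gad2 at 99.1 CPM, genes of inhibitory central neurons. Neurofibroma 1 had 1878 CPM of muscle genes. Results that rest on these libraries are given with and without them. Below, the libraries with other tissues are MPNST 2, 3 and 6, nerve 6 and neurofibroma 1. Smaller amounts remained in libraries that were kept. MPNST 5 held 356 CPM of salivary gland genes, and nerve 3 held 487 CPM of muscle genes. Oligodendrocyte and astrocyte genes summed to 537, 426 and 533 CPM in nerve 1, 2 and 3, and to 436 CPM in neurofibroma 4. The 8 Schwann lineage markers summed to between 6549 and 11123 CPM in neurofibroma and to between 67.2 and 1351 CPM in MPNST.

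Nerve and neurofibroma libraries contained abundant transcripts of neurons. The 12 general neuron markers summed to between 10083 and 16403 CPM in nerve and between 10601 and 13958 CPM in neurofibroma. In MPNST libraries 1 to 5 the same sum ran from 36.8 to 214 CPM, and the library labelled MPNST 6 reached 6365 CPM. In such bulk samples, fewer neurons and less RNA per neuron cannot be told apart.

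The 34 genes together made up a median of 10780 CPM in nerve (9419 to 11380) and 7856 CPM in neurofibroma (7283 to 9296). Every neurofibroma library lay below every nerve library in that sum. MPNST 1 held 548 CPM, MPNST 2 held 126 CPM, MPNST 3 held 346 CPM, MPNST 4 held 266 CPM and MPNST 5 held 501 CPM. The library labelled MPNST 6 held 5451 CPM, above the other MPNST libraries and below every nerve and neurofibroma library.

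**Figure D1:**
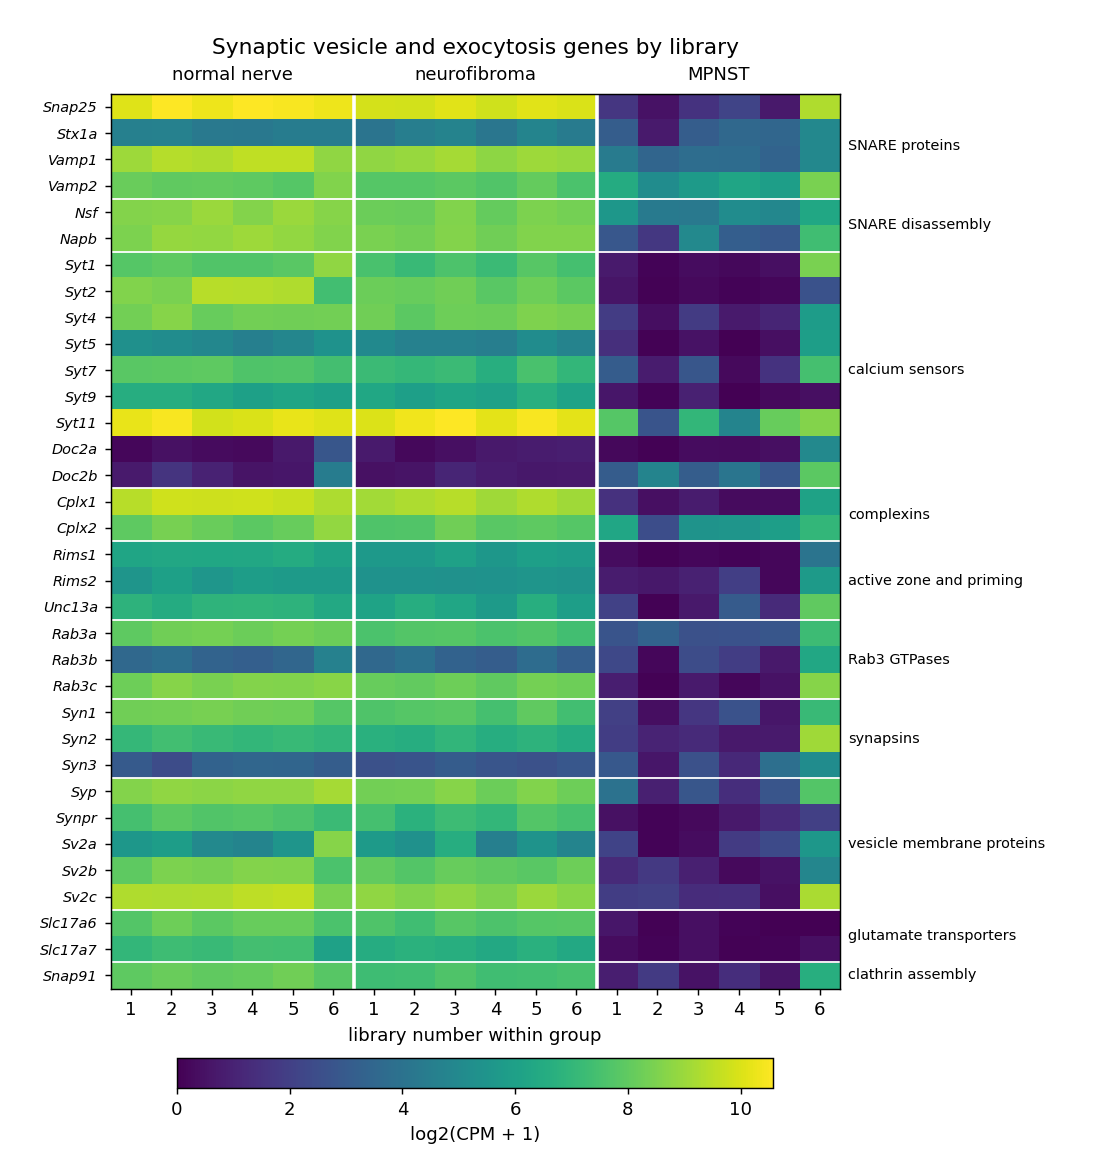
Level of each of the 34 genes in each of the 18 libraries, as log2(CPM + 1) on a color scale, with genes grouped by role and libraries by group. Nerve and neurofibroma columns look alike, MPNST 1 to 5 are dark for most genes, and the library labelled MPNST 6 is bright for many genes but dark for Slc17a6, Slc17a7 and Syt9.

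Levels of different genes were compared only after division by transcript length, as CPM per kilobase of the longest protein-coding transcript. On that scale Snap25, the plasma membrane SNARE of fast release, was the highest member in nerve at 638 ± 85.3 CPM per kilobase (SD, n = 6). Cplx1 followed at 369 ± 56.5 CPM per kilobase. Syt11, Vamp1 and Rab3a came next at 227 ± 35.1, 212 ± 41.9 and 194 ± 19.2 CPM per kilobase, and these neighbours did not differ beyond their spread. The synaptobrevin gene Vamp1 stood above its paralog Vamp2, which was at 125 ± 25.0 CPM per kilobase. Of the vesicular glutamate transporters, Slc17a6 was at 60.4 ± 10.3 CPM per kilobase and Slc17a7 at 47.4 ± 13.2, which overlapped within the spread. Rab3b, Syn3, Doc2b and Doc2a were the lowest members, at 3.81 ± 1.79 CPM per kilobase and below. The first 4 places were the same in neurofibroma, where Snap25 was at 471 ± 39.7 CPM per kilobase.

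RefSeq promoter sequence (GRCm38.p6, 250 bases before to 50 bases after the start site) was found for 25 of the 34 members. Vamp2, Syt4, Syt5, Syt7, Snap25, Doc2a, Doc2b, Syn3 and Rims2 were not matched. The left part of the site bound by the neuronal gene repressor REST was searched as TTCAGCACC, the cAMP response element as TGACGTCA and the GC box as CCGCCC, each on both strands. None of these motifs contains another. The 250 bases before the start are printed for Syn1, which carries the partial site, and for Slc17a7, among the members lowest in MPNST. They are also printed for Syt11, which was not lower in neurofibroma and averaged 10.5% of its neurofibroma mean in MPNST 1 to 5. Capitals mark TTCAGCACC and TGACGTCA in Syn1, and CCGCCC or its reverse complement in Slc17a7 and Syt11.
Syn1, chrX:20920919-20921168, minus strand: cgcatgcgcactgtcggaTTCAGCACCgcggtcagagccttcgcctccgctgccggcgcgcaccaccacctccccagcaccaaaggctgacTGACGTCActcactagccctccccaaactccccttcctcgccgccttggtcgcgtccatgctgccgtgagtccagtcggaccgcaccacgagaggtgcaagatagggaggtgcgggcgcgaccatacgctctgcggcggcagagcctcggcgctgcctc
Slc17a7, chr7:45163671-45163920, plus strand: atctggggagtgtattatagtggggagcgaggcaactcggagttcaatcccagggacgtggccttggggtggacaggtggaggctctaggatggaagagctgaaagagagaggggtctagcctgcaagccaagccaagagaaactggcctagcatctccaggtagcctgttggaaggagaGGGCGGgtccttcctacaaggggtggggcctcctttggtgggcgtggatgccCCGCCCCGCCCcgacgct
Syt11, chr3:88772600-88772849, minus strand: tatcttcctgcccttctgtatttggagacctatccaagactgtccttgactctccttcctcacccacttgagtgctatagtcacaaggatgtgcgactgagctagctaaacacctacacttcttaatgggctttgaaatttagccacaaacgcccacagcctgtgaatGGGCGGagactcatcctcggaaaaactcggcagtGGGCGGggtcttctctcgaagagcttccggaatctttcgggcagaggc

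TTCAGCACC occurred in the 300-base windows of 2 of the 25 matched members (8%), Syn1 and Unc13a, against 0.433% of 27025 RefSeq symbols. The 27 bases that start with the partial site are printed for both, with the partial site in capitals. The right part of the REST site was not searched, so lower-case bases do not mean that it is absent.
Unc13a, chr8:71671727-71671753, plus strand, starting 5 bases after the start site: TTCAGCACCgggggcgcggacagcgcc
Syn1, chrX:20921124-20921150, minus strand: TTCAGCACCgcggtcagagccttcgcc
TGACGTCA was present in 1 of the 25 members, Syn1, against 2.03% of all symbols. CCGCCC was present in 21 of the 25 members (84%) against 38.2% of all symbols. A match of letters describes these windows and does not show that a factor binds there.

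The comparison of neurofibroma with nerve asked which of these genes differ in the benign tumor of the same nerve. In edgeR's quasi-likelihood test with Benjamini-Hochberg adjustment over all genes tested, 14 of the 34 members were lower at an adjusted p below 0.05, against 6.00% of all 16464 genes tested. No member was called higher, against 7.94% of all genes, and none was higher at an unadjusted p below 0.05, in edgeR, DESeq2 or limma-voom. The log2 change was negative for 32 of 34 members, with a median of -0.43 over members and -0.02 over all genes. The 5 members whose libraries did not overlap between the groups were all lower, where 2.14% of all genes were lower without overlap. Without nerve 6 and neurofibroma 1, 19 of 33 members tested were lower, against 10.1% of all genes. A single fit of all 18 samples called no member lower or higher, and 1 was lower at an unadjusted p below 0.05. That fit called 0 of all 17316 genes tested lower and 2 higher, so its count of 0 is not particular to the members.

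Of the SNARE genes, Snap25 ranged from 1065 to 1530 CPM in nerve (median 1358) and from 911 to 1095 CPM in neurofibroma (median 978). The groups overlapped only at the lowest nerve library, and the log2 change was -0.45 ± 0.11 (SE, adjusted p = 0.019). Stx1a, the syntaxin that pairs with it, was at a median of 20.5 CPM in nerve and 21.1 CPM in neurofibroma, with a log2 change of 0.01 ± 0.14 (adjusted p = 0.97). Vamp1 had a log2 change of -0.37 ± 0.14 and an adjusted p of 0.081, which became 0.026 without nerve 6 and neurofibroma 1. Vamp2 did not pass the test with or without those libraries (adjusted p = 0.13 and 0.24). Nsf, the ATPase that pulls spent SNARE complexes apart, ranged from 387 to 505 CPM in nerve and from 273 to 384 CPM in neurofibroma, without overlap. Nsf had a log2 change of -0.43 ± 0.11 (adjusted p = 0.023), but the adjusted p was 0.053 without nerve 5 and also without neurofibroma 2. Napb, the adaptor that brings NSF to the complex, had a log2 change of -0.34 ± 0.11 (adjusted p = 0.056, and 0.037 without the libraries with other tissues).

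Of the calcium sensors, only Syt7 was called with all libraries. Syt7, a slow, high-affinity sensor, ranged from 170 to 245 CPM in nerve (median 221) and from 97.8 to 184 CPM in neurofibroma (median 139). The groups overlapped at nerve 6 and neurofibroma 5, and the log2 change was -0.64 ± 0.14 (adjusted p = 0.012). Syt2, a fast sensor, ranged from 167 to 695 CPM in nerve (median 515) and from 233 to 315 CPM in neurofibroma (median 286). The lowest nerve value was that of nerve 6, and the other 5 nerve libraries lay above all 6 neurofibroma libraries. The log2 change of Syt2 was -0.82 ± 0.28 with all libraries (adjusted p = 0.068) and -1.03 without nerve 6 and neurofibroma 1 (adjusted p = 0.0067). Syt1, Syt4, Syt5 and Syt9 did not pass the test in either setting, with log2 changes between -0.55 and -0.07 with all libraries. Syt11, a family member not known as a calcium sensor, had the highest log2 change of any member, at 0.14 ± 0.13 (adjusted p = 0.48).

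The Doc2 genes were near the bottom of the range in both groups. Doc2b was at a median of 0.861 CPM in nerve and 0.618 CPM in neurofibroma, but nerve 6 held 21.0 CPM. Doc2b had a log2 change of -2.67 ± 0.94 with all libraries (adjusted p = 0.073) and -0.43 without nerve 6 and neurofibroma 1 (adjusted p = 0.49). Doc2a was at 0.153 to 0.629 CPM in nerve libraries 1 to 5 and at 6.09 CPM in nerve 6, and its adjusted p was 0.40.

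All 3 active zone and priming members were called. Rims1, a scaffold of the release site, ranged from 66.9 to 89.1 CPM in nerve (median 79.1) and from 47.2 to 65.2 CPM in neurofibroma (median 53.9), without overlap. Its log2 change was -0.50 ± 0.10 (adjusted p = 0.0087). Rims2 also did not overlap, at 44.7 to 62.7 CPM against 40.3 to 44.4 CPM, with a log2 change of -0.36 ± 0.09 (adjusted p = 0.025, and 0.051 without nerve 5). Unc13a, which primes docked vesicles, had a log2 change of -0.50 ± 0.15 and an adjusted p of 0.047. That call was lost in 9 of the 12 fits that left out 1 library, with adjusted p up to 0.093. Cplx1 had a log2 change of -0.43 ± 0.12 (adjusted p = 0.032), and its call was lost in 8 of those 12 fits, with adjusted p up to 0.067. Cplx2 did not pass the test (log2 change -0.38 ± 0.16, adjusted p = 0.13).

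Rab3a, the GTPase that marks vesicles for docking, ranged from 250 to 331 CPM in nerve (median 303) and from 164 to 223 CPM in neurofibroma (median 201). The groups did not overlap, and the log2 change of -0.61 ± 0.09 had an adjusted p of 0.0030. Rab3c followed at -0.40 ± 0.10 (adjusted p = 0.022), and Rab3b did not pass the test (adjusted p = 0.45). Synapsins tether vesicles to actin in the reserve pool. Syn1 fell by 0.53 ± 0.13 on the log2 scale (adjusted p = 0.018) and Syn2 by 0.42 ± 0.10 (adjusted p = 0.017), while Syn3, at a median of 8.38 CPM in nerve, had an adjusted p of 0.13.

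Syp, the abundant vesicle tetraspan synaptophysin, ranged from 394 to 562 CPM in nerve and from 291 to 400 CPM in neurofibroma. Only the highest neurofibroma library entered the nerve range, and the log2 change was -0.45 ± 0.11 (adjusted p = 0.017). Its relative Synpr did not pass the test (adjusted p = 0.20). The SV2 genes encode transporter-like glycoproteins of the vesicle membrane. Sv2c fell by 0.55 ± 0.16 on the log2 scale (adjusted p = 0.042), a call lost in 10 of 12 fits that left out 1 library, and kept without nerve 6 and neurofibroma 1 (adjusted p = 0.0034). Sv2b had an adjusted p of 0.22 with all libraries and 0.045 without those 2. Sv2a was at 26.5 to 58.8 CPM in nerve libraries 1 to 5 and at 399.6 CPM in nerve 6. The change of Sv2a on the log2 scale was -1.11 ± 0.66 with all libraries and 0.12 without nerve 6 and neurofibroma 1 (adjusted p = 0.27 and 0.84).

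Slc17a6 and Slc17a7, which fill vesicles with glutamate, missed the threshold with all libraries. Slc17a7 had a log2 change of -0.56 ± 0.19 (adjusted p = 0.068), and of -0.70 without nerve 6 and neurofibroma 1 (adjusted p = 0.0034). Slc17a6 had adjusted p values of 0.15 and 0.068. Snap91, which assembles clathrin during vesicle recovery, had the smallest p of all members. It ranged from 228 to 310 CPM in nerve (median 264) and from 154 to 204 CPM in neurofibroma (median 164), without overlap, and its log2 change was -0.65 ± 0.10 (adjusted p = 0.0025). Of the 14 calls, 8 held in every one of the 12 fits that left out 1 library: Snap25, Syt7, Rims1, Rab3a, Syn1, Syn2, Syp and Snap91.

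**Figure D2:**
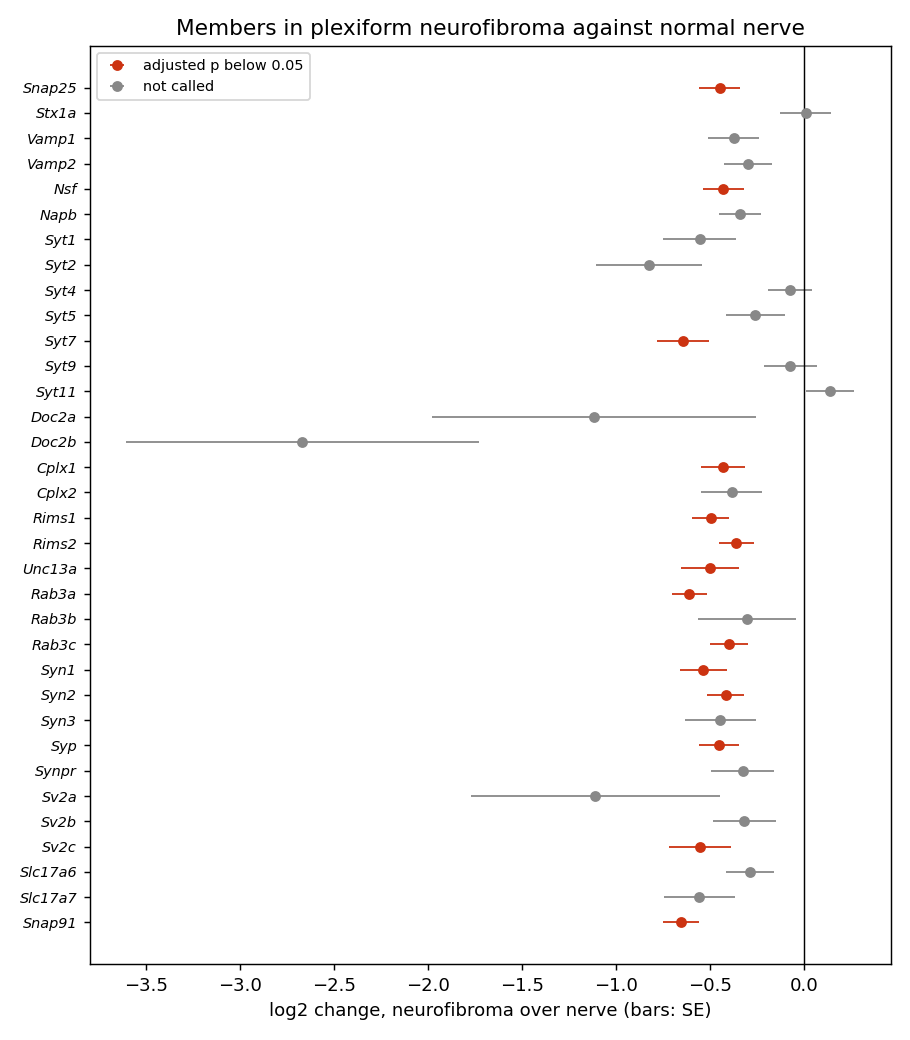
Log2 change of each member in neurofibroma against nerve (points, horizontal axis) with its standard error (bars), 6 libraries a group. Red points mark the 14 members at an adjusted p below 0.05, and all of them lie left of 0. Doc2b, Doc2a and Sv2a have the widest bars.

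General neuron markers were measured in the same comparison. Of 12 such markers, 1 was lower, Map2 at a log2 change of -0.74 ± 0.14 (adjusted p = 0.0066), and the median was -0.28. That count is near the 6.00% of all genes that were lower. At an unadjusted p below 0.05 in edgeR, 4 of the 12 were lower. DESeq2 and limma-voom each called 2 of them lower, against 1658 and 1913 of all 16464 genes. Of 11 sensory neuron markers, 0 were called by edgeR, with 0 at an unadjusted p below 0.05 and a median of -0.17. DESeq2 also called 0 of them, and limma-voom called 2 lower. Without nerve 6 and neurofibroma 1, edgeR called 2 of the 12 general and 3 of the 11 sensory markers lower, where 10.1% of all genes were lower. The summed members were 69.0% to 96.6% of the summed neuron markers in nerve (median 73.7%) and 65.6% to 72.9% in neurofibroma (median 69.0%), so these ranges overlapped. Schwann lineage markers summed to 2818 to 6633 CPM in nerve and to 6549 to 11123 CPM in neurofibroma. The part of cell composition in the lower levels was not tested.

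The comparison of MPNST with neurofibroma asked how the malignant tumor differs from the benign tumor. Most vesicle release transcripts were below 10% of their neurofibroma level in MPNST libraries 1 to 5, and the library labelled MPNST 6 set how many of the differences passed the test. With all 6 MPNSTs, 17 of 33 members tested were lower, against 16.8% of all 16537 genes tested. Only Doc2b was higher, against 25.3% of all genes, and 15 members passed in neither direction. Without the library labelled MPNST 6, 31 of 33 were lower against 23.9% of all genes, and again only Doc2b was higher, against 30.4%. Without MPNST 2, 3 and 6 and neurofibroma 1, 31 of 34 were lower (29.8% of all genes) and Doc2b was higher (29.8%). The median log2 change of the members was -2.83 with all libraries and -5.71 without the library labelled MPNST 6, while that of all genes was 0.22 with all libraries. Scaling moved the median of all genes between 0.17 and 0.28, which is small beside most of these changes. With all 6 MPNSTs, 19 members lay below every neurofibroma library (16.2% of all genes did) and 1, Doc2b, lay above every one (2.26% of all genes did).

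**Figure D3:**
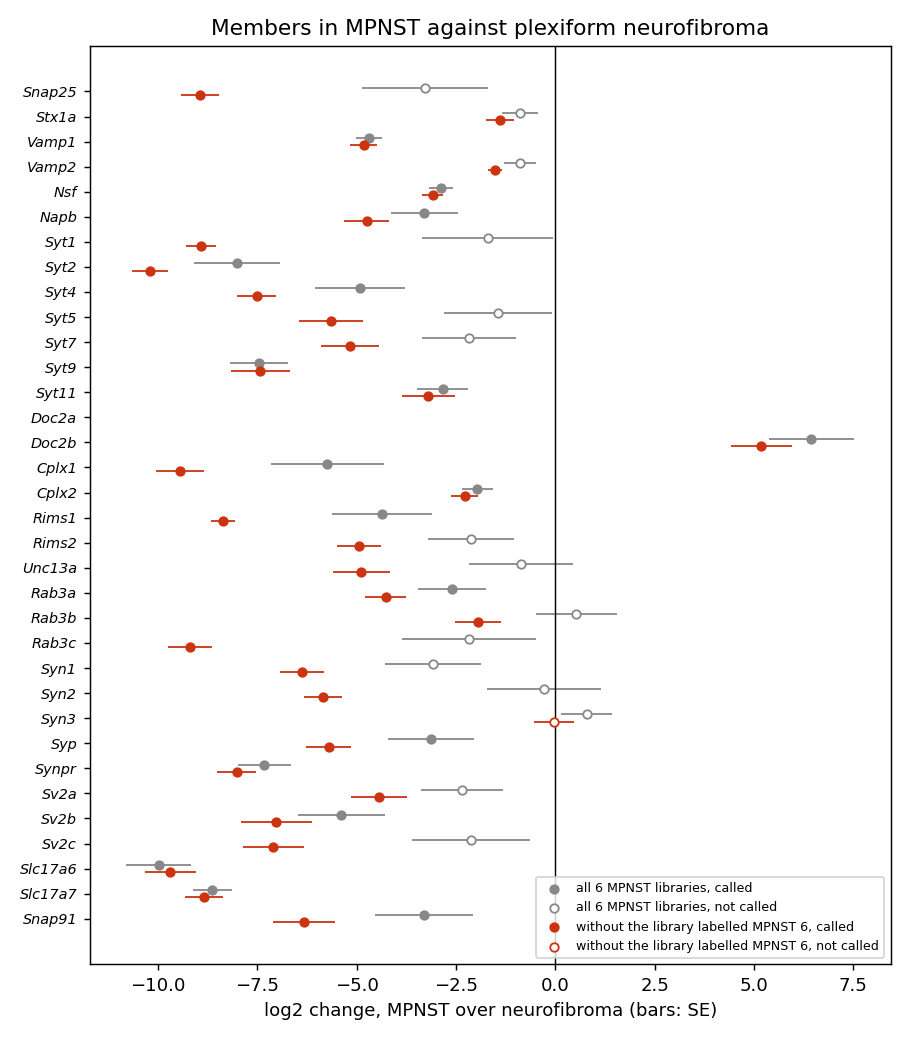
Log2 change of each member in MPNST against neurofibroma (points, horizontal axis) with its standard error (bars). Grey points use all 6 MPNST libraries and red points leave out the library labelled MPNST 6, and filled points are at an adjusted p below 0.05. Leaving out that library moves most points to the left and fills 31 of them left of 0, while Doc2b stays right of 0. Doc2a was not tested and has no point.

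The glutamate transporters had the largest negative log2 changes of the members tested with all libraries. Slc17a7 ranged from 82.5 to 108 CPM in neurofibroma (median 95.3) and from 0.0429 to 0.367 CPM in the 6 MPNST libraries, the library labelled MPNST 6 included. All MPNST libraries lay far below all neurofibroma libraries, and the log2 change was -8.63 ± 0.49 (adjusted p = 6.25e-07). Slc17a6 ranged from 160 to 229 CPM in neurofibroma and was at most 0.571 CPM in MPNST. It was listed at 0 in MPNST 5 and in the library labelled MPNST 6, which allows up to 0.216 and 0.157 CPM by a count of 3. Slc17a6 had a log2 change of -9.99 ± 0.81 (adjusted p = 6.5e-06).

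The SNARE genes differed in how far they lay below neurofibroma. Vamp1 ranged from 440 to 571 CPM in neurofibroma (median 490), and MPNST libraries held 9.36 to 29.8 CPM. The groups did not overlap, with a log2 change of -4.68 ± 0.33 (adjusted p = 2.45e-06). Snap25 was between 0.423 and 3.52 CPM in MPNST 1 to 5 and at 639 CPM in the library labelled MPNST 6, so that its log2 change of -3.28 ± 1.58 did not pass (adjusted p = 0.11). Without that library the change was -8.94 ± 0.47 (adjusted p = 1.65e-07), and all MPNST libraries were below all neurofibroma libraries in either case. Vamp2 and Stx1a lay nearer to their neurofibroma levels. Vamp2 was at 34.3 to 89.9 CPM in MPNST 1 to 5, 27.9% of the neurofibroma mean, and at 350.2 CPM in the library labelled MPNST 6. The log2 change of Vamp2 was -0.89 ± 0.40 with that library and -1.52 ± 0.18 without it (adjusted p = 0.091 and 5.1e-05). Stx1a was at 0.676 to 10.9 CPM in MPNST 1 to 5, 35.5% of the neurofibroma mean, and at 29.9 CPM in the library labelled MPNST 6. Its adjusted p was 0.13 with that library and 0.0061 without it, at log2 changes of -0.88 ± 0.45 and -1.39 ± 0.35.

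Nsf ranged from 273 to 384 CPM in neurofibroma (median 312) and from 18.2 to 77.4 CPM in MPNST, without overlap, with a log2 change of -2.88 ± 0.29 (adjusted p = 3.1e-05). Napb fell further in MPNST 1 to 5, to between 2.33 and 30.3 CPM, against 313 to 390 CPM in neurofibroma. The library labelled MPNST 6 held 159.7 CPM, and the log2 change was -3.30 ± 0.84 with it (adjusted p = 0.0087) and -4.75 ± 0.56 without it.

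Of the synaptotagmins, 4 were lower with all libraries: Syt2, Syt4, Syt9 and Syt11. Syt9 ranged from 61.7 to 99.9 CPM in neurofibroma (median 72.0) and was at or below 0.983 CPM in every MPNST library, with a log2 change of -7.45 ± 0.73 (adjusted p = 2.4e-05). It was listed at 0 in MPNST 4, which allows up to 0.129 CPM. Syt2 was at 233 to 315 CPM in neurofibroma, at 0.0423 to 0.514 CPM in MPNST 1 to 5 and at 5.34 CPM in the library labelled MPNST 6, with a log2 change of -8.01 ± 1.08 (adjusted p = 0.00022). Syt4, a family member that binds calcium poorly, had a log2 change of -4.91 ± 1.13 (adjusted p = 0.0051). Syt11, whose promoter is printed above, was at 1045 to 1531 CPM in neurofibroma, at 223 CPM in MPNST 1, 5.67 in MPNST 2, 129 in MPNST 3, 26.1 in MPNST 4 and 277 in MPNST 5, and at 394 CPM in the library labelled MPNST 6. The groups did not overlap, and the log2 change was -2.83 ± 0.64 (adjusted p = 0.0048).

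Syt1, Syt5 and Syt7 passed the test only without the library labelled MPNST 6. Syt1, the fast sensor of most central synapses, ranged from 142 to 228 CPM in neurofibroma, from 0.0846 to 0.685 CPM in MPNST 1 to 5, and stood at 346 CPM in the library labelled MPNST 6. The adjusted p was 0.42 at a log2 change of -1.70 ± 1.65 with that library, and 4.1e-08 at -8.92 ± 0.37 without it. Syt5 went from -1.43 ± 1.36 (adjusted p = 0.41) to -5.65 ± 0.80 (adjusted p = 0.00016), and Syt7 from -2.18 ± 1.18 (adjusted p = 0.16) to -5.17 ± 0.73 (adjusted p = 0.00016). Syt5 and Syt7 had medians of 25.1 and 139 CPM in neurofibroma and at most 1.65 and 7.47 CPM in MPNST 1 to 5.

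Doc2b was the exception among the sensors. It encodes a soluble high-affinity calcium sensor that also acts in hormone-secreting cells. Neurofibroma libraries held 0.399 to 1.12 CPM (median 0.618). MPNST 1 held 7.53 CPM, MPNST 2 held 26.6, MPNST 3 held 7.72, MPNST 4 held 16.1 and MPNST 5 held 6.34, and the library labelled MPNST 6 held 243 CPM. All 6 MPNST libraries lay above all 6 neurofibroma libraries, with a log2 change of 6.45 ± 1.07 (adjusted p = 0.00081). The change was 5.18 ± 0.77 without the library labelled MPNST 6 and 3.70 without MPNST 2, 3 and 6 and neurofibroma 1 (adjusted p = 0.00021 and 0.00013). Doc2a was too low to be tested with all libraries, at or below 0.849 CPM everywhere in neurofibroma and at or below 0.360 CPM in MPNST 1 to 5, but the library labelled MPNST 6 held 30.4 CPM. It was tested in the setting without the libraries with other tissues, where its log2 change of -1.15 did not pass (adjusted p = 0.11).

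Cplx1 and Cplx2 fell by very different amounts. Cplx1 was at 541 to 701 CPM in neurofibroma and at 0.258 to 1.88 CPM in MPNST 1 to 5, 0.117% of the neurofibroma mean. The library labelled MPNST 6 held 66.9 CPM, and the log2 change was -5.74 ± 1.43 (adjusted p = 0.0075). Cplx2 was at 202 to 312 CPM in neurofibroma and at 4.74 to 76.5 CPM in MPNST 1 to 5, 19.2% of the neurofibroma mean, with a log2 change of -1.96 ± 0.38 over all libraries (adjusted p = 0.0020). Neither gene overlapped between the groups, and the difference between the 2 changes was not tested.

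Of the active zone and priming genes, Rims1 was lower with all libraries, at 0.0423 to 0.285 CPM in MPNST 1 to 5 and 15.9 CPM in the library labelled MPNST 6 (log2 change -4.36 ± 1.27, adjusted p = 0.016). Rims2 and Unc13a stood above the neurofibroma range in the library labelled MPNST 6, at 53.0 and 251 CPM. In MPNST 1 to 5 they were at or below 2.88 and 7.30 CPM, against neurofibroma medians of 41.1 and 71.9 CPM. The log2 change of Rims2 went from -2.13 ± 1.08 (adjusted p = 0.13) to -4.94 ± 0.56 (adjusted p = 3.2e-05) when that library was left out, and that of Unc13a from -0.86 ± 1.31 (adjusted p = 0.62) to -4.89 ± 0.72 (adjusted p = 0.00021).

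Rab3a was lower, at 5.13 to 9.17 CPM in MPNST 1 to 5 and 153 CPM in the library labelled MPNST 6, against 164 to 223 CPM in neurofibroma. Its log2 change was -2.60 ± 0.85 (adjusted p = 0.028, and 0.059 without MPNST 2). Rab3c and Rab3b were higher in the library labelled MPNST 6, at 399 and 80.4 CPM, than in any neurofibroma library. Rab3c was at or below 0.856 CPM in MPNST 1 to 5, and its log2 change was -2.18 ± 1.68 with all libraries (adjusted p = 0.31) and -9.20 ± 0.54 without that library (adjusted p = 3.9e-07). Rab3b, at 7.59 to 14.2 CPM in neurofibroma, changed sign, from 0.53 ± 1.02 (adjusted p = 0.70) to -1.94 ± 0.58 (adjusted p = 0.015).

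No synapsin was called with all 6 MPNST libraries. Syn1, whose promoter is printed above, was at 167 to 257 CPM in neurofibroma, at 0.296 to 5.32 CPM in MPNST 1 to 5 and at 145 CPM in the library labelled MPNST 6. The groups did not overlap, with a log2 change of -3.07 ± 1.21 (adjusted p = 0.059) that became -6.38 ± 0.55 without that library (adjusted p = 5.3e-06). Syn2 was at 0.644 to 2.74 CPM in MPNST 1 to 5 and at 531 CPM in the library labelled MPNST 6, where neurofibroma held 90.9 to 123 CPM. Its log2 change went from -0.28 ± 1.44 (adjusted p = 0.89) to -5.85 ± 0.47 (adjusted p = 3.1e-06). Syn3, at 5.19 to 7.36 CPM in neurofibroma and 0.550 to 13.6 CPM in MPNST 1 to 5, passed in no setting. Its log2 change was 0.79 ± 0.65 with all libraries and -0.03 ± 0.51 without the library labelled MPNST 6 (adjusted p = 0.34 and 0.97).

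Among vesicle membrane proteins, Synpr was at 108 to 212 CPM in neurofibroma (median 164) and at or below 2.99 CPM in all 6 MPNST libraries, with a log2 change of -7.32 ± 0.66 (adjusted p = 1.4e-05). Syp was at 0.888 to 14.9 CPM in MPNST 1 to 5 and 211 CPM in the library labelled MPNST 6, against 291 to 400 CPM in neurofibroma. Its log2 change of -3.12 ± 1.08 had an adjusted p of 0.035, and that call held in 2 of 12 fits that left out 1 library. Sv2b fell by 5.38 ± 1.10 on the log2 scale (adjusted p = 0.0026). Sv2c reached 609 CPM in the library labelled MPNST 6, above the highest neurofibroma library at 508 CPM, and was at or below 3.04 CPM in MPNST 1 to 5. The log2 change of Sv2c was -2.12 ± 1.48 with that library (adjusted p = 0.26) and -7.10 ± 0.76 without it (adjusted p = 2.3e-05). Sv2a had a log2 change of -2.35 ± 1.03 with that library (adjusted p = 0.086) and of -4.44 ± 0.71 without it (adjusted p = 0.00037). Snap91 was at 0.421 to 2.49 CPM in MPNST 1 to 5, at 97.2 CPM in the library labelled MPNST 6 and at 154 to 204 CPM in neurofibroma. Its log2 change of -3.31 ± 1.23 had an adjusted p of 0.048, a call kept in 1 of 12 fits that left out 1 library, that without the library labelled MPNST 6 (-6.32 ± 0.78, adjusted p = 6.2e-05).

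Averaged over MPNST 1 to 5, 14 of the 34 members were below 1% of the neurofibroma mean, 12 were at 1% to 10% and 8 were at 10% or more. The 8 were Stx1a (35.5%), Vamp2 (27.9%), Syt11 (10.5%), Doc2a (38.2%), Doc2b (1932%), Cplx2 (19.2%), Rab3b (23.5%) and Syn3 (91.3%). Doc2a, Rab3b and Syn3 were low genes in neurofibroma, whereas Vamp2, Syt11 and Cplx2 were abundant there. The averages take in MPNST 2 and MPNST 3. Salivary gland genes made up 42.7% of the counts of MPNST 2, and skeletal muscle genes 5.48% of those of MPNST 3, which lowers the CPM of the members there. The percentages were not computed without these libraries. As a share of the 12 summed neuron markers, the members stood at 164% to 853% in MPNST 1 to 5, against 65.6% to 72.9% in neurofibroma. That neuron marker sum was only 36.8 to 214 CPM in MPNST 1 to 5. In each of those libraries 11 to 22 of the members were below 1 CPM, so the share does not describe the whole set. The neuron markers were themselves all lower without the library labelled MPNST 6 (12 of 12, median log2 change -7.61). So were the sensory neuron markers (11 of 11, median -8.60), where 23.9% of all genes were lower.

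The library labelled MPNST 6 had the highest level of the MPNST group for 32 of the 34 members. Against the neurofibroma range it stood above for 13, within for 2 (Syt7 and Sv2a) and below for 19. Doc2a and Doc2b were the furthest above. Rab3b was at 781%, Syn3 at 579%, Syn2 at 513% and Unc13a at 333% of the neurofibroma mean. At the other end were Slc17a6 at 0%, Slc17a7 at 0.387%, Syt9 at 0.490%, Synpr at 1.87%, Syt2 at 1.93% and Vamp1 at 6.02%. The monoamine transporters Slc18a1 and Slc18a2, which load catecholamines into vesicles, were at 196 and 395 CPM there and at or below 0.634 and 1.01 CPM in MPNST 1 to 5. Sensory neuron markers in that library were led by Isl1 at 536 CPM and Scn9a at 224 CPM, while Pou4f1, Scn10a and Trpv1 were each at 0.105 CPM. The part of its sympathoadrenal and acinar transcripts in these levels was not tested.

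**Figure D4:**
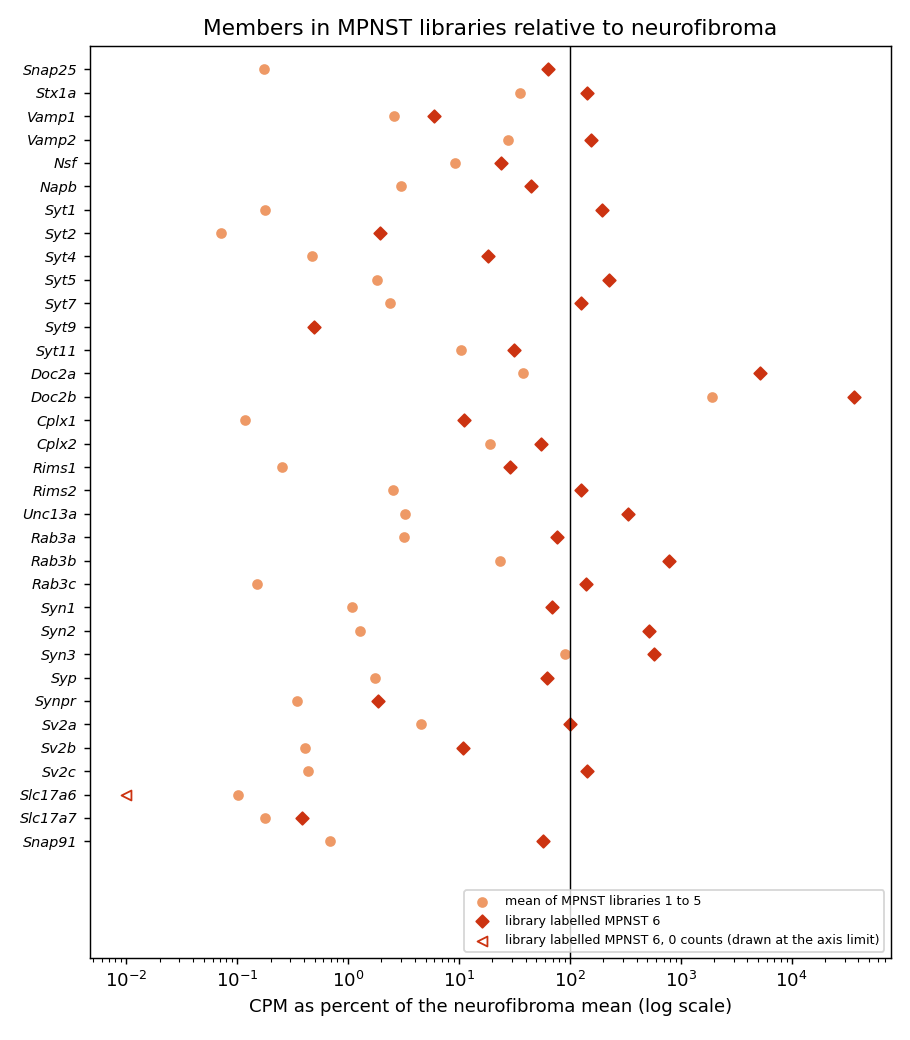
Level of each member as a percentage of the neurofibroma mean CPM, on a log axis, for the mean of MPNST 1 to 5 and for the library labelled MPNST 6. The library labelled MPNST 6 lies to the right for most members, but both points are below 1% for Slc17a7 and Syt9, and Slc17a6, at 0 in that library, is drawn at the axis limit.

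The comparison of MPNST with nerve asked the same of normal tissue, and it shares the MPNST libraries with the comparison above. With all libraries 20 of 33 members tested were lower, against 18.4% of all 16384 genes tested, and Doc2b was higher, against 27.6%. Without the library labelled MPNST 6, 31 were lower (25.1% of all genes), and none was higher (31.6% of all genes) at an adjusted p below 0.05 in edgeR, with 1 higher at an unadjusted p below 0.05. DESeq2 and limma-voom each called 1 higher with all libraries. Without any of the libraries with other tissues 31 were lower (30.9%) and 1 was higher (32.0%). The members called lower with all libraries here but not against neurofibroma were Vamp2 (log2 change -1.20 ± 0.41, adjusted p = 0.031), Syn1 (-3.62 ± 1.24, adjusted p = 0.032) and Sv2a (-3.44 ± 1.22, adjusted p = 0.036). The calls of Vamp2 and Sv2a held in 6 of 12 fits that left out 1 library and that of Syn1 in 9. With all libraries, 19 members lay below every nerve library, as did 15.5% of all genes.

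The smallest p values against nerve were those of Slc17a7 (log2 change -9.20 ± 0.56, adjusted p = 1.2e-06), Vamp1 (-5.07 ± 0.36, adjusted p = 3.8e-06), Slc17a6 (-10.28 ± 0.85, adjusted p = 7.9e-06), Synpr (-7.66 ± 0.66, adjusted p = 9.8e-06), Nsf (-3.31 ± 0.30, adjusted p = 1.4e-05) and Syt9 (-7.53 ± 0.74, adjusted p = 2.45e-05). All 6 were without overlap between the groups. Doc2b had a log2 change of 3.80 ± 1.31 (adjusted p = 0.032), overlapping with nerve 6 at 21.0 CPM. Without nerve 6 the change was 5.87 ± 1.22 (adjusted p = 0.0036), and without the library labelled MPNST 6 it was 2.53 ± 1.14 (adjusted p = 0.077). The call was also lost without any 1 of nerve libraries 1 to 5.

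Apart from Syn3 and the untested Doc2a, 11 members were called in neither MPNST comparison with all libraries: Snap25, Stx1a, Syt1, Syt5, Syt7, Rims2, Unc13a, Rab3b, Rab3c, Syn2 and Sv2c. Against nerve their log2 changes ran from -3.75 ± 1.62 for Snap25 (adjusted p = 0.076) to 0.22 ± 1.03 for Rab3b (adjusted p = 0.87). Those 11 were lower against nerve without the library labelled MPNST 6, from -9.60 ± 0.57 for Rab3c (adjusted p = 4.1e-07) to -1.39 ± 0.35 for Stx1a (adjusted p = 0.0052).

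Other genes of vesicle traffic were read from 6 lists holding 83 genes in all. Their counts stand against 6.00% of all genes lower and 7.94% higher in neurofibroma against nerve. In neurofibroma against nerve, 14 of 21 further active zone and priming genes were lower and 0 higher, with 0 higher at an unadjusted p below 0.05. The largest change among those called was that of Stxbp5l, at -0.84 ± 0.25 (adjusted p = 0.042). Of 12 endocytosis and recycling genes 6 were lower, led by Pacsin1 at -0.72 ± 0.13 (adjusted p = 0.0050). Of 12 dense-core vesicle genes 4 were lower, led by Ptprn2 at -0.79 ± 0.15 (adjusted p = 0.0073). Of 14 other vesicle membrane genes and synaptotagmins tested, 6 were lower, led by Scamp1 at -0.49 ± 0.14 (adjusted p = 0.034), and 1 was higher, Syngr2 at 0.80 ± 0.15 (adjusted p = 0.0059). No vesicular transmitter transporter of the 3 tested was called by edgeR, DESeq2 or limma-voom, and 2 were lower at an unadjusted p below 0.05 in edgeR.

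Broadly expressed SNARE proteins, and factors that act with them, serve other fusion steps in most cells. The list read here holds genes of both kinds. Its Syt16 was low, at 4.64 ± 1.04 CPM in neurofibroma (SD, n = 6). Of 17 tested in neurofibroma against nerve, 2 were higher (7.94% of all genes were) and 0 lower (6.00%), with 2 lower at an unadjusted p below 0.05, and DESeq2 and limma-voom each called 1 lower. Vamp8, a SNARE of endosomes and secretory cells, rose from 15.2 ± 3.95 to 28.5 ± 3.16 CPM (SD, n = 6), a log2 change of 0.91 ± 0.16 (adjusted p = 0.0050). Vamp3, the broadly expressed relative of Vamp1 and Vamp2, rose from 32.3 ± 8.13 to 52.8 ± 7.73 CPM, a log2 change of 0.70 ± 0.16 (adjusted p = 0.016). The 2 calls among 17 genes are close to the share of all genes. The 6 macrophage markers summed to 31.4 to 171 CPM in nerve and to 112 to 245 CPM in neurofibroma, and their part in these rises was not tested.

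In MPNST against neurofibroma, 4 of these 17 were lower and 4 higher, where 16.8% of all genes were lower and 25.3% higher, so neither count stands out from all genes. Snap23, the broadly expressed relative of Snap25, was at 9.90 to 16.6 CPM in neurofibroma and at 22.2 to 65.8 CPM in MPNST 1 to 5, but at 7.96 CPM in the library labelled MPNST 6. Its log2 change was 1.94 ± 0.42 (adjusted p = 0.0037). Vamp3 rose again, by 0.56 ± 0.16 on the log2 scale (adjusted p = 0.015), and the largest rise was that of Stxbp2 at 3.29 ± 0.67 (adjusted p = 0.0026). Napa, the broadly expressed relative of Napb, had a log2 change of -0.89 ± 0.29 (adjusted p = 0.026), and Napg was the furthest down at -1.58 ± 0.17 (adjusted p = 4.8e-05). Against nerve 4 were lower (18.4% of all genes) and 6 higher (27.6%), led by Napg (-1.86 ± 0.19, adjusted p = 3.1e-05) and Vamp8 (2.25 ± 0.58, adjusted p = 0.0079). The macrophage markers summed to 128 to 2494 CPM in MPNST, and their part in the higher levels there was not tested either.

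**Figure D5:**
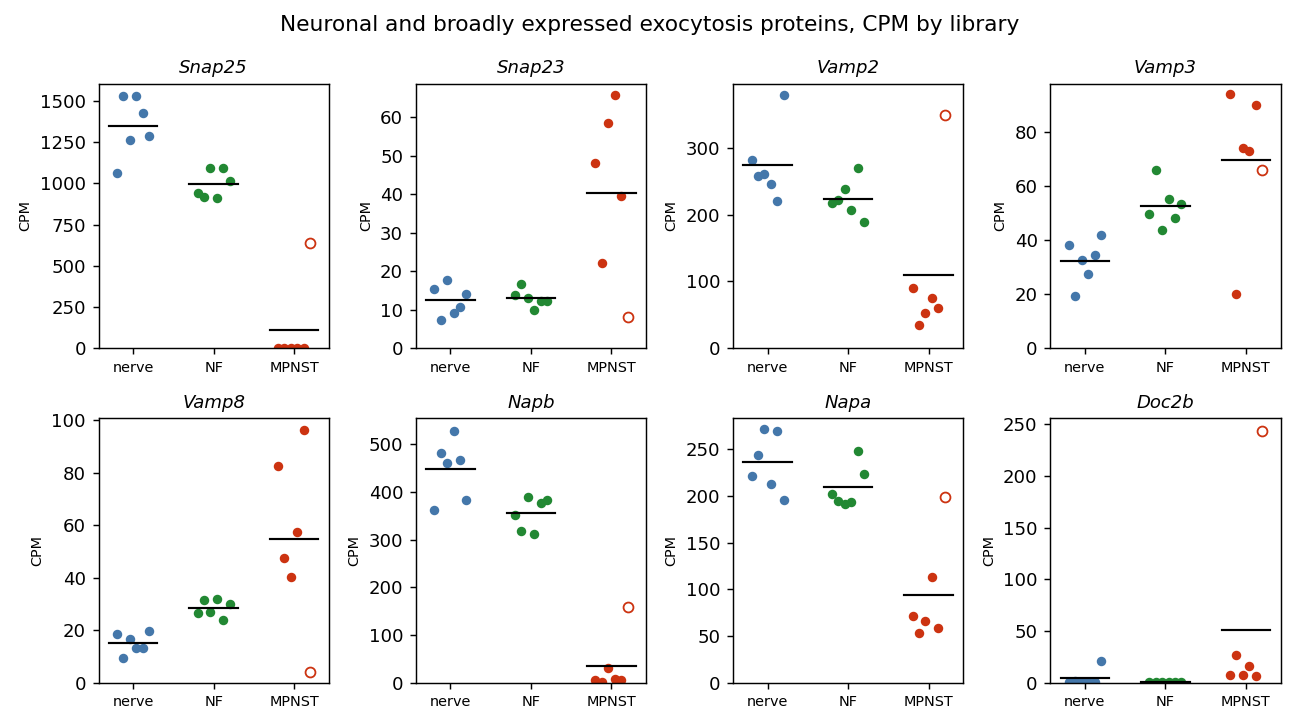
CPM in each library (points) and the group mean (horizontal lines) for neuronal exocytosis genes and their broadly expressed relatives, with Doc2b, in nerve, neurofibroma and MPNST. The open circle is the library labelled MPNST 6. Snap25, Vamp2 and Napb are low in MPNST 1 to 5, Snap23 is higher there than in neurofibroma, and Doc2b is above neurofibroma in all 6 MPNST libraries.

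The remaining lists were read in both MPNST comparisons, against the same shares of all genes (16.8% lower and 25.3% higher against neurofibroma, 18.4% and 27.6% against nerve), and for several of them the library labelled MPNST 6 again set the count. Active zone and priming genes were lower for 5 of 21 against neurofibroma and 6 of 21 against nerve, and for 14 and 17 without that library (23.9% and 25.1% of all genes were lower there), with none higher in edgeR (0 at an unadjusted p below 0.05 with all libraries), DESeq2 or limma-voom. Rph3a, an effector of Rab3, led them at -7.67 ± 0.86 against neurofibroma (adjusted p = 6.3e-05) and -8.22 ± 0.89 against nerve (adjusted p = 4.4e-05). Dense-core vesicle genes were lower for 5 of 12 in both comparisons and for 11 of 12 without that library, led by Pcsk1 at -7.57 ± 0.72 and -7.62 ± 0.75 (adjusted p = 2.1e-05 and 2.5e-05). Endocytosis genes were lower for 8 of 12 in both, led by Amph at -5.08 ± 0.72 and -5.36 ± 0.74 (adjusted p = 0.00031 and 0.00022).

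Other vesicle membrane genes were lower for 6 of 14 and higher for 2 against neurofibroma, and lower for 8 and higher for 1 against nerve. The counts of higher genes are below the share over all genes in both comparisons. Syt6 led the falls at -6.02 ± 0.94 and -6.44 ± 0.95 (adjusted p = 0.00054 and 0.00033). Syt17 was the largest rise against neurofibroma, 4.30 ± 1.41 (adjusted p = 0.028), with 76.4 CPM in the library labelled MPNST 6 and at most 1.69 CPM in MPNST 1 to 5. Syngr2, a synaptogyrin of non-neuronal cells, rose by 3.26 ± 0.46 on the log2 scale against nerve (adjusted p = 0.00024) and was at 54.4 to 142 CPM in MPNST 1 to 5 against 16.6 to 24.4 CPM in neurofibroma. Of the 4 vesicular transporters tested against neurofibroma, Slc17a8, the third glutamate transporter, was lower at -4.25 ± 0.38 (adjusted p = 1.3e-05) and 2 were higher. Slc18a2 had a log2 change of 5.39 ± 1.80 with all libraries (adjusted p = 0.030) and of -0.70 ± 0.25 without the library labelled MPNST 6 (adjusted p = 0.033). Slc17a9, which carries nucleotides, was at 0.249 to 0.519 CPM in neurofibroma and at 0.562 to 8.67 CPM in MPNST (log2 change 4.01 ± 0.80, adjusted p = 0.0022). Against nerve 1 was lower, Slc17a8 at -4.53 ± 0.43 (adjusted p = 1.8e-05), and 1 higher, Slc17a9 at 4.04 ± 0.87 (adjusted p = 0.0030).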

How the data were processed

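Libraries were made with a stranded mRNA kit, per the labels' protocols. FastQC, Salmon 1.4.0 and DESeq2 and the build GRCm39 are named in the submitters' processing notes, and the authors deposited estimated counts per gene for 18 samples. Estimated counts are not whole where Salmon splits reads between similar or overlapping transcripts, so near-identical genes can share reads. Counts were rounded for testing, and every row carried a gene name. Within groups no libraries were identical, and the chi-square per degree of freedom was at least 18.8. CPM divides the deposited estimated count by the library total. The limit for a count of 0 is 3 counts and covers counting error only.

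Each pair of groups was fitted with edgeR 4.0.16 (R 4.3.3; filterByExpr, TMM, glmQLFit and glmQLFTest), with no covariate, and p was adjusted over all genes tested by Benjamini-Hochberg; a gene was called at an adjusted p below 0.05. Alternatives were RLE and upper quartile scaling, other filters, DESeq2 1.42.0, limma-voom 3.58.1, a joint fit of all 18 samples, stricter thresholds and leaving libraries out. Levels per length used the longest basic protein-coding GENCODE M21 transcript, and promoters came from RefSeq. The GRCm38 reference differs from the files' build, so no coordinates were joined to the counts.

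All 34 members are named. Full statistics are given for up to 6 called members with the smallest p per direction and comparison, those called in the minority direction, those whose call changed without the libraries with other tissues, and those called in neither MPNST comparison; of each of 6 further lists (83 of 84 entries found, Vamp7 not matched), the called gene with the largest change per direction. Vamp3, Snap23, Napa, Syngr2 against neurofibroma, Slc18a1 and Slc18a2 were named in addition, after their values were seen. Members, lists and the libraries left out were chosen with earlier results of these data known.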

Additional observations from a re-analysis of the deposited data

Results flagged for a closer look

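Of 102 sets of 6 values (34 genes in 3 groups), 33 had 1 library far from the other 5 by Dixon's test, where chance gives about 5%. In 25 sets it was the library labelled MPNST 6, always as the highest of its group. Its values in CPM were 639 for Snap25, 29.9 for Stx1a, 350.2 for Vamp2, 159.7 for Napb, 346 for Syt1, 5.34 for Syt2, 56.4 for Syt4, 60.8 for Syt5 and 174 for Syt7. They were 30.4 for Doc2a, 243 for Doc2b, 66.9 for Cplx1, 15.9 for Rims1, 53.0 for Rims2, 251 for Unc13a, 153 for Rab3a, 80.4 for Rab3b and 399 for Rab3c. They were 145 for Syn1, 531 for Syn2, 211 for Syp, 47.1 for Sv2a, 27.9 for Sv2b, 609 for Sv2c and 97.2 for Snap91. The same library held 4620 CPM of sympathoadrenal genes, and the part of those cells in these levels was not tested.

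Nerve 6 stood apart in 7 sets. It was the highest nerve library for Syt1 (452 CPM), Doc2a (6.09 CPM), Doc2b (21.0 CPM), Rab3b (24.4 CPM) and Sv2a (399.6 CPM), and the lowest for Syn1 (224 CPM) and Sv2c (354 CPM). It also had the highest sums of oligodendrocyte and astrocyte genes (2218 CPM) and of sympathoadrenal genes (285 CPM) among the nerve libraries, and their part was not tested. Nerve 2 was the highest for Syt4, at 406 CPM.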

How the results depend on the processing

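Counts of members called lower kept within 1.5 times under the other scalings, both filters and DESeq2. DESeq2 gave no adjusted p for some members in each comparison, and those counted as not called. In MPNST against neurofibroma it gave 20 members the same outcome as edgeR, called or not, and called 3 more, where edgeR tested 33. That made 20 members called lower and 1 higher. In MPNST against nerve 22 had the same outcome and 2 more were called, again of 33. There 21 were called lower and 1 higher. The DESeq2 counts thus rest on fewer members. In neurofibroma against nerve, the count of 14 became 0 in one fit of all 18 samples, 3 at an adjusted p below 0.01 and 0 when an absolute log2 change of at least 1 was also asked. Over all genes, 988 lower of 16464 became 0 of 17316 in the fit of all samples, and 161 and 61 of 16464 at the stricter thresholds. The count of members ran from 9 (without nerve 5 or neurofibroma 2) to 20 (without nerve 6) when 1 library was left out. In MPNST against neurofibroma, the count of 17 became 31 with limma-voom and 31 without the libraries with other tissues, and ran from 14 to 31 when 1 library was left out. Over all genes there, 2772 lower of 16537 became 5040 with limma-voom and 5267 of 17694 without those libraries. In MPNST against nerve, the count of 20 became 31 in the same settings and ran from 17 to 31. Over all genes against nerve, 3007 lower of 16384 became 5242 with limma-voom and 5430 of 17597 without those libraries. The count of 1 higher member in MPNST against nerve, Doc2b, became 0 at an adjusted p below 0.01 and ran from 0 to 1. The fit of all 18 samples shares 1 estimate of the spread with the MPNST libraries. Neither its part in the count of 0 nor the cause of the other changes was tested.

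Some log2 changes turned in sign, none of them called with all libraries. In neurofibroma against nerve, Stx1a was at -0.0214 with a filter of 1 CPM in 6 samples, at -0.0023 with limma-voom and between -0.0605 and 0.0722 without 1 library. Doc2a was at 0.66 with limma-voom and between -1.37 and 0.84, and Sv2a at 0.12 without the libraries with other tissues and between -1.44 and 0.17. In MPNST against neurofibroma, Rab3b was at -2.05 with limma-voom, at -2.11 without the libraries with other tissues and between -1.94 and 0.88. Syn2 ran from -5.85 to 0.0798 and Syn3 from -0.0269 to 1.06 without 1 library. In MPNST against nerve, Rab3b was at -2.17 and -2.16 in those settings and between -2.25 and 0.53, and Syn3 at -0.41 and -0.27 and between -0.48 and 0.58.

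No paired analysis was possible because the labels give no replicate numbers shared between groups. Depth limits the members near 0 in MPNST, where a count of 0 allows up to 0.216 CPM.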
